A study of Mus musculus with 8 samples.

Results

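The 10 genes described here encode negative feedback regulators of MAPK and NF-kB signalling. They are the dual-specificity phosphatases Dusp1, Dusp2, Dusp4, Dusp5 and Dusp6, the immediate early response gene Ier3, the NF-kB inhibitors Nfkbia and Tnfaip3, and the mRNA decay factors Zfp36 and Zfp36l1. They were taken by name, 10 of 45232 genes in the deposited table, and all 10 were found and passed the filter on low values. The members were selected on their TPM in these libraries, with differences between the tissues already known, so tissue differences are given as a description and only differences between genotypes are tested.

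RNA was sequenced from sorted T cells positive for CD4 and CD25, a gate rich in regulatory T cells, taken from visceral adipose tissue or spleen of C57BL/6 mice. Mice of the genotype labelled Id2 CKO, called KO in the sample titles and Id2-deficient by the submitters, were set against WT mice. Id2 encodes an inhibitor of DNA binding. The sources used here do not give a Cre driver, the age of the mice or any treatment. The 4 groups were KO adipose tissue, WT adipose tissue, KO spleen and WT spleen. Each group had 2 libraries, numbered 2 and 3 and called experiments in the file headers. These are given in that order throughout. Each library came from a minimum of 500 cells. The labels do not say that libraries 2 and 3 are from different animals. The p-values therefore reflect only how far these libraries spread, which may be technical.

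MAPK cascades pass signals from the T cell receptor, cytokines and stress to transcription factors through kinases that phosphorylate each other in turn. Dual-specificity phosphatases remove the activating phosphates from the last kinases of the cascade, and their genes are themselves induced by it. NF-kB is held in the cytoplasm by inhibitor proteins such as that of Nfkbia, and its activation induces Nfkbia and Tnfaip3, whose proteins then switch it off. Zfp36 proteins bind AU-rich elements in mRNAs of cytokines and early response genes and bring the deadenylation machinery to them.

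Values are in TPM, a share of all transcripts corrected for gene length and scaled to the same total in each library, so levels of different genes can be set side by side. The unit holds no record of how deeply a library was sequenced, so depth is unknown and no counting interval is given. Between 13184 and 20684 genes were above 0 in a library. Id2 itself had 1499 and 1298 TPM in KO adipose libraries, against 2249 and 3679 TPM in WT adipose libraries, and 72.1 and 265 TPM in KO spleen libraries, against 274 and 346 TPM in WT spleen libraries. It was lower in every KO library than in every WT library of the same tissue, and the difference passed no test (log2 difference -1.04 ± 0.57 SE, adjusted p = 0.751 by limma in adipose tissue, and -1.15 ± 0.57 SE, adjusted p = 1 by limma in spleen). Foxp3, the defining transcription factor of regulatory T cells, was low in the KO libraries numbered 2, at 7.40 TPM in adipose tissue and 8.27 TPM in spleen, and lay between 93.5 and 266 TPM in the other libraries. Markers of other cells were unevenly spread. Macrophage and monocyte markers (11 genes) summed to 15.8 and 11182 TPM in KO adipose libraries, 9.43 and 21.0 TPM in WT adipose libraries, 13.3 and 105 TPM in KO spleen libraries and 614 and 156 TPM in WT spleen libraries. Fibroblast and mesothelium markers (10 genes) summed to 746 and 3734 TPM in KO adipose libraries, 0.328 and 4.80 TPM in WT adipose libraries and at most 0.454 TPM in a spleen library.

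Upstream sequences are shown for 5 of the genes as examples of different patterns over the libraries. Dusp1, Dusp5 and Tnfaip3 were high in adipose tissue, Nfkbia overlapped between tissues, and Dusp2 split between experiments. Dusp6, Ier3 and Zfp36 were also high in adipose tissue, by more than Dusp5, and are not shown. The 5 were chosen with the values known. Each is the stretch of 250 bases before the annotated start in RefSeq (GRCm38.p6), 5′ to 3′ on the strand of the gene, and 9 of the 10 members matched the RefSeq table, Dusp4 being the exception. Tnfaip3 has 2 annotated starts, of which the first is shown. Capitals mark letters of 4 motifs searched on both strands: the cAMP response element TGACGTCA, the AP-1 motif TGANTCA, the NF-kB consensus and the CArG box bound by serum response factor.
Dusp1, chr17:26508473-26508722, minus strand: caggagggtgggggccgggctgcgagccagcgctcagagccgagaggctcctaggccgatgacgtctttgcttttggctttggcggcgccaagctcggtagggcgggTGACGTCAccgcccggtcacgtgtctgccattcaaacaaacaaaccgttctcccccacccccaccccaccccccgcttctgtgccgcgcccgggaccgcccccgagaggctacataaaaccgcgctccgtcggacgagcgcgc
Dusp5, chr19:53528895-53529144, plus strand: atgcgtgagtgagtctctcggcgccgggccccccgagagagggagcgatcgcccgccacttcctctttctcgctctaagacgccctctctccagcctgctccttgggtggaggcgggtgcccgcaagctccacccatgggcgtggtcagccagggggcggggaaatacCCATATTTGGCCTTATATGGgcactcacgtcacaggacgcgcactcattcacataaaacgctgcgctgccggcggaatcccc
Nfkbia, chr12:55492648-55492897, minus strand: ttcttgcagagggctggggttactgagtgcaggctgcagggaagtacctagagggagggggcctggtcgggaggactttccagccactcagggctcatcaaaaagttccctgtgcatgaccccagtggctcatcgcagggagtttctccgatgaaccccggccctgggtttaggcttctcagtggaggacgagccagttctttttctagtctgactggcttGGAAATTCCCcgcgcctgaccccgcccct
Tnfaip3, chr10:19015411-19015660, minus strand: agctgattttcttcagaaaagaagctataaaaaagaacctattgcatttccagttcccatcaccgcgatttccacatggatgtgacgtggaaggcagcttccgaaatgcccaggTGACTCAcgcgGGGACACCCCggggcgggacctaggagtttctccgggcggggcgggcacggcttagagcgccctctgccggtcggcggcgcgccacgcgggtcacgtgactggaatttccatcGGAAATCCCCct
Dusp2, chr2:127335909-127336158, plus strand: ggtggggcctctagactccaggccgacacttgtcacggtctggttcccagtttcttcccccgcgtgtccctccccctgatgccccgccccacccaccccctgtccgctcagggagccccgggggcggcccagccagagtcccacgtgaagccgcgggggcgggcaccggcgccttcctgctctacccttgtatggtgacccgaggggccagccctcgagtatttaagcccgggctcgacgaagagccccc

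In these windows Dusp1 held 1 cAMP response element, which 1.55% of 32851 RefSeq promoter windows of the same length also held. Dusp5 held 2 CArG boxes that adjoin without overlap, and Zfp36 held 1, against 1.47% of all windows with at least 1. The NF-kB consensus was found in Ier3, Nfkbia and Tnfaip3, against 7.25% of windows. Tnfaip3 held 2 copies of it beside an AP-1 motif that overlaps neither, and the AP-1 motif was also found in Zfp36l1, against 6.75% of windows. Dusp2 and Dusp6 held none of these letters. A match is a description of letters, and no binding was measured.

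Dusp1 and Nfkbia were the most abundant of the 10 genes in adipose tissue, and Nfkbia in spleen. In each of the 4 adipose libraries Dusp1 had the highest level, with 36.9% to 43.6% of the summed TPM of the 10 genes in KO and 35.4% to 49.6% in WT. In each of the 4 spleen libraries Nfkbia had the highest level, with 68.6% to 82.6% of the sum in KO and 67.2% to 72.0% in WT, and Dusp1 made up 2.43% to 4.19% in KO and 3.50% to 5.19% in WT. The 10 genes summed to 3693 and 2922 TPM in KO adipose libraries, 3757 and 5315 TPM in WT adipose libraries, 1401 and 1066 TPM in KO spleen libraries and 1331 and 1375 TPM in WT spleen libraries. The sum was higher in every adipose library than in every spleen library.

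**Figure D1:**
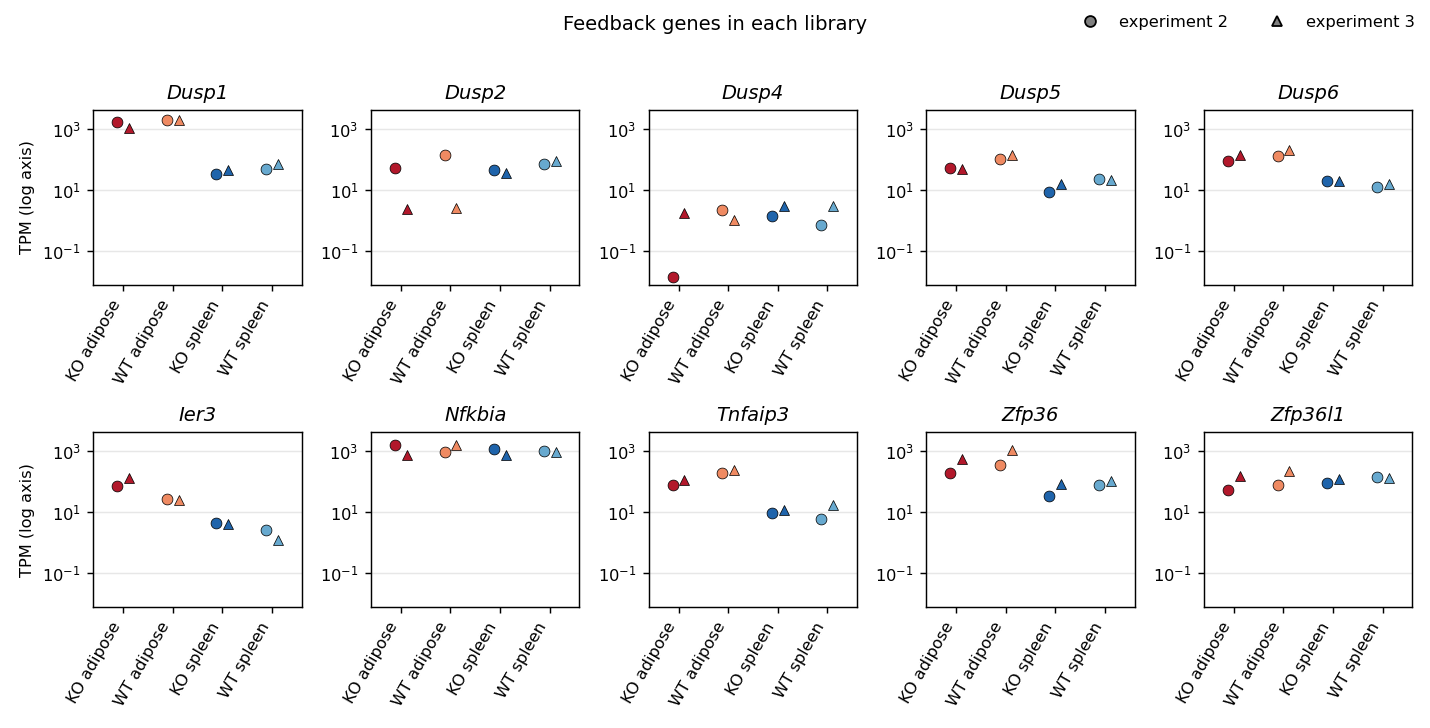
TPM of each of the 10 genes on a log axis in each library, by group, with circles for experiment 2 and triangles for experiment 3. Dusp1 lies above 1000 TPM in all adipose libraries and below 100 TPM in all spleen libraries, and Dusp2 splits by experiment within adipose tissue.

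The phosphatases did not share 1 pattern. Dusp1, a nuclear phosphatase that acts mainly on p38 and JNK kinases, had 1609 and 1078 TPM in KO adipose libraries, 1864 and 1882 TPM in WT adipose libraries, 34.0 and 44.7 TPM in KO spleen libraries and 46.6 and 71.3 TPM in WT spleen libraries. The lowest adipose value was over 10 times the highest spleen value, and the log2 difference between adipose tissue and spleen was 5.04 ± 0.35 (SE) in KO and 4.997 ± 0.350 in WT. All log2 differences here were computed after adding 1 to each TPM, so those of low genes are understated. Dusp5, a nuclear phosphatase specific for ERK, had 53.2 and 47.7 TPM in KO adipose libraries, 99.0 and 134 TPM in WT adipose libraries, 8.53 and 15.4 TPM in KO spleen libraries and 22.6 and 21.6 TPM in WT spleen libraries. Adipose values lay above spleen values in both genotypes, with log2 differences of 2.04 ± 0.39 in KO and 2.33 ± 0.39 in WT. Dusp6, the cytoplasmic ERK phosphatase, had 87.2 and 142 TPM in KO adipose libraries, 128 and 195 TPM in WT adipose libraries, 19.6 and 19.2 TPM in KO spleen libraries and 12.7 and 16.0 TPM in WT spleen libraries. Its adipose values also lay above all spleen values, by log2 2.46 ± 0.38 in KO and 3.39 ± 0.38 in WT.

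Dusp2, a nuclear phosphatase of activated lymphocytes, had 51.3 and 2.39 TPM in KO adipose libraries, 134 and 2.64 TPM in WT adipose libraries, 43.2 and 36.7 TPM in KO spleen libraries and 69.7 and 89.4 TPM in WT spleen libraries. Its adipose values fell on both sides of its spleen values, and the log2 differences between tissues, -1.62 ± 1.65 in KO and -1.85 ± 1.65 in WT, had the largest error of the 10 genes. Dusp4, which acts on ERK and JNK, was low throughout, with 0.0146 and 1.78 TPM in KO adipose libraries, 2.21 and 1.05 TPM in WT adipose libraries, 1.42 and 3.00 TPM in KO spleen libraries and 0.694 and 2.89 TPM in WT spleen libraries. All 4 groups overlapped in part, and Dusp4 reached 1 TPM in 6 of 8 libraries.

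Ier3, an early response gene whose protein modulates ERK signalling and cell death, had 73.4 and 131 TPM in KO adipose libraries, 27.1 and 25.2 TPM in WT adipose libraries, 4.28 and 4.13 TPM in KO spleen libraries and 2.58 and 1.27 TPM in WT spleen libraries. The 4 groups did not overlap, and the order was the same within each tissue, KO above WT. The log2 difference between adipose tissue and spleen was 4.25 ± 0.48 in KO and 3.25 ± 0.48 in WT.

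The NF-kB inhibitors split. Nfkbia, which encodes the inhibitor IkB alpha, had 1509 and 729 TPM in KO adipose libraries, 900.4 and 1549 TPM in WT adipose libraries, 1157 and 732 TPM in KO spleen libraries and 958 and 923 TPM in WT spleen libraries. All groups overlapped, and the log2 difference between tissues was 0.19 ± 0.46 in KO and 0.33 ± 0.46 in WT. Tnfaip3, which encodes the ubiquitin-editing enzyme A20, had 74.5 and 109 TPM in KO adipose libraries, 188 and 242 TPM in WT adipose libraries, 9.19 and 11.9 TPM in KO spleen libraries and 5.97 and 17.2 TPM in WT spleen libraries. Every adipose value lay above every spleen value, by log2 2.99 ± 0.50 in KO and 4.25 ± 0.50 in WT.

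The mRNA decay factors split as well. Zfp36, the gene of tristetraprolin, had 184 and 530.0 TPM in KO adipose libraries, 336 and 1067 TPM in WT adipose libraries, 33.2 and 81.9 TPM in KO spleen libraries and 77.9 and 107 TPM in WT spleen libraries. Adipose values lay above spleen values, by log2 2.56 ± 0.70 in KO and 2.70 ± 0.70 in WT. Zfp36l1, its paralogue, had 51.4 and 151 TPM in KO adipose libraries, 78.4 and 216 TPM in WT adipose libraries, 90.2 and 118 TPM in KO spleen libraries and 134 and 125 TPM in WT spleen libraries. Its adipose values reached both below and above its spleen values, with log2 differences of -0.22 ± 0.60 in KO and 0.01 ± 0.60 in WT.

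In both genotypes the same 6 of 10 genes (Dusp1, Dusp5, Dusp6, Ier3, Tnfaip3 and Zfp36) had both adipose libraries above both spleen libraries, beside 22.1% of the 13376 tested genes in KO and 37.8% in WT. The other 4 overlapped in both genotypes. The median log2 difference of the 10 genes was 2.25 in KO and 2.52 in WT, beside 0.16 in KO and 0.32 in WT over all tested genes. Within experiments 2 and 3 taken alone the median of the 10 genes was 2.27 and 2.13 in KO, and 2.09 and 2.94 in WT. The limma fit over all tested genes called 4 of 10 in KO (Dusp1, Dusp6, Ier3 and Tnfaip3, beside 1.08% of all genes) and 3 of 10 in WT (Dusp1, Dusp6 and Tnfaip3, beside 0.164%). Nothing is read from these shares, since tissue differences helped to choose the genes.

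The number called depended on single libraries and on the processing. In KO it was 0 without KO spleen library 2, 1 without KO spleen library 3 and 2 without KO adipose library 3. In WT it was 0 without WT spleen library 2, 1 without WT spleen library 3 or WT adipose library 3, and 5 without either KO adipose library. With no filter on low values it was 2 in KO and 0 in WT, with no trend in the variance 2 in KO and 1 in WT, and with the experiment number as a block 6 in KO and 5 in WT. With library weights or only the 4 libraries compared it was 2 in KO and 5 in WT, and with a filter at 5 TPM 4 in KO and 5 in WT. Without both KO libraries numbered 2 it was 2 in KO and 5 in WT. The 11 T cell core markers summed to 9493 and 3644 TPM in KO adipose libraries, 8961 and 7173 TPM in WT adipose libraries, 9861 and 8036 TPM in KO spleen libraries and 9574 and 7718 TPM in WT spleen libraries. The 6 adipocyte markers summed to 122 and 13862 TPM in KO adipose libraries, 29.6 and 2166 TPM in WT adipose libraries and at most 13.9 TPM in a spleen library. The adipocyte sums lay above the spleen sums in both genotypes, while the T cell core sums overlapped between tissues. In the adipose libraries numbered 2 the adipocyte sum was mostly Pparg, at 107 TPM in KO and 25.6 TPM in WT. Adipoq there had 0.0290 TPM in KO and 0 TPM in WT, below its 1.03 to 3.83 TPM in the spleen libraries. Fabp4 there had 14.2 and 3.11 TPM, against at most 2.64 TPM in a spleen library, and Cidec 0.0432 and 0.843 TPM, against 0. Between tissues the median log2 difference of the macrophage markers was 3.31 in KO and -3.49 in WT. That of the erythroid markers was 2.15 in KO and -4.20 in WT. For the fibroblast and mesothelium markers it was 5.64 in KO and 0 in WT, all but Dcn passing the filter only through KO adipose libraries. The part of all these markers in the tissue differences was not tested, and in bulk RNA fewer cells of a type and less RNA per cell cannot be told apart.

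**Figure D2:**
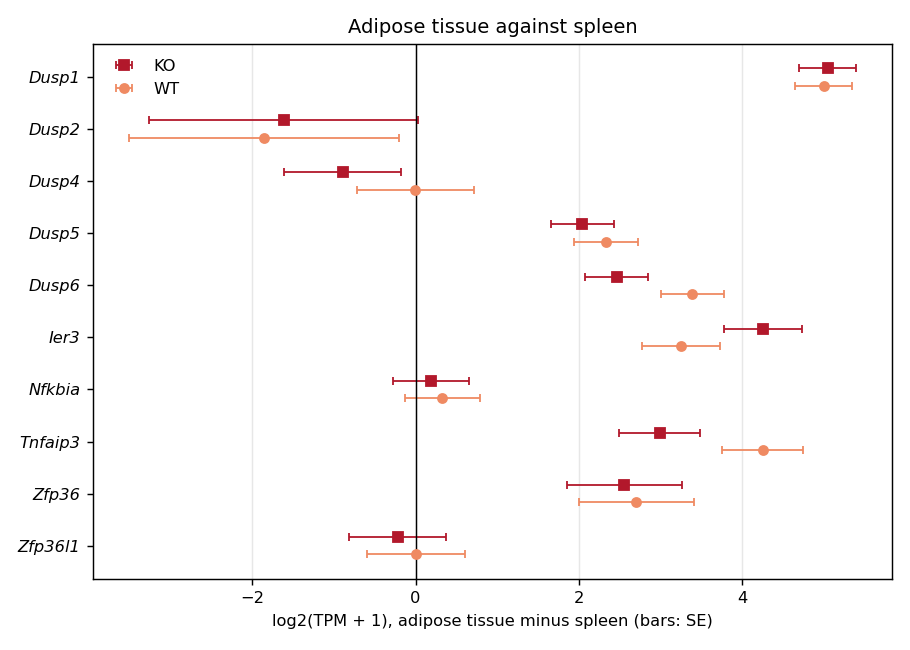
Difference in log2(TPM + 1) between adipose tissue and spleen for each gene, in KO (squares) and WT (circles), with bars of the SE from the limma fit, 2 libraries a group. Dusp1 stands highest in both genotypes at 5.04 in KO and 4.997 in WT, and Dusp2, Dusp4, Nfkbia and Zfp36l1 lie near or below 0.

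The order of levels changed between the tissues. In KO adipose tissue the order by mean log2 level was Dusp1, Nfkbia, Zfp36, Dusp6, Ier3, Tnfaip3, Zfp36l1, Dusp5, Dusp2 and Dusp4. Dusp1 and Nfkbia overlapped there, and the neighbours from Dusp6 down to Dusp2 overlapped as well. In WT adipose tissue the order was Dusp1, Nfkbia, Zfp36, Tnfaip3, Dusp6, Zfp36l1, Dusp5, Ier3, Dusp2 and Dusp4, with Dusp1 apart from Nfkbia, and Dusp5 apart from Ier3. In KO spleen it was Nfkbia, Zfp36l1, Zfp36, Dusp2, Dusp1, Dusp6, Dusp5, Tnfaip3, Ier3 and Dusp4. WT spleen had the same order except that Dusp5 stood above Dusp6. In both spleen groups Zfp36, Dusp2 and Dusp1 overlapped as neighbours, and so did the lower of Dusp5 and Dusp6 with Tnfaip3.

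The study set Id2 CKO cells against WT cells. In adipose tissue Ier3 was higher in both KO libraries than in both WT libraries, and Dusp1, Dusp5 and Tnfaip3 were lower in both, but none of the 10 genes passed the test over all genes. Ier3 averaged 102 ± 41.0 TPM in KO and 26.1 ± 1.37 TPM in WT (SD, n = 2 each), a log2 difference of 1.87 ± 0.48 SE (95% interval 0.78 to 2.97, adjusted p = 0.295 by limma). Dusp5 averaged 50.5 ± 3.89 TPM in KO and 117 ± 24.8 TPM in WT, a log2 difference of -1.18 ± 0.39 SE (95% interval -2.07 to -0.29, adjusted p = 0.526 by limma). Tnfaip3 averaged 91.8 ± 24.4 TPM in KO and 215 ± 38.0 TPM in WT, a log2 difference of -1.23 ± 0.50 SE (95% interval -2.37 to -0.10, adjusted p = 0.651 by limma). Dusp1 averaged 1343 ± 376 TPM in KO and 1873 ± 13.2 TPM in WT, a log2 difference of -0.51 ± 0.35 SE (95% interval -1.31 to 0.30, adjusted p = 0.776 by limma).

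The other 6 genes overlapped between the genotypes in adipose tissue. Their log2 differences were -0.94 ± 0.70 SE for Zfp36, -0.73 ± 1.65 for Dusp2, -0.61 ± 0.72 for Dusp4, -0.56 ± 0.60 for Zfp36l1, -0.50 ± 0.38 for Dusp6 and -0.17 ± 0.46 for Nfkbia. The limma fit called 0 of 10 genes at an adjusted p under 0.05, beside 0.284% of all tested genes, and 3 of 10 had an unadjusted p under 0.05, beside 6.97% of all genes. Those 3 were Ier3, Dusp5 and Tnfaip3. Non-overlap with KO lower was seen for 3 of 10 genes, beside 27.5% of all genes, and with KO higher for 1 of 10, beside 7.66%. Differences below 0 were seen for 9 of 10 genes, beside 67.7% of all genes, and the median was -0.58 over the 10 genes and -0.27 over all genes. The share of the 10 genes lower in both KO libraries was thus near that of all genes.

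In the libraries of experiment 2 taken alone, the KO and WT adipose difference in log2 was 1.41 for Ier3, -0.88 for Dusp5 and -1.33 for Tnfaip3. In experiment 3 it was 2.34 for Ier3, -1.47 for Dusp5 and -1.14 for Tnfaip3. Nfkbia went in opposite directions, with 0.74 in experiment 2 and -1.09 in experiment 3. Markers of other cells in the same libraries are given beside this. All 7 tested fibroblast and mesothelium markers were higher in both KO adipose libraries than in both WT adipose libraries, and limma called 4 of them (Igfbp6, Dcn, Upk3b and Msln, adjusted p 0.00338 to 0.0297). All of the 7 but Dcn reached 1 TPM only in the KO adipose libraries. For these the filter itself fixed KO above WT, so their direction and calls are a description and no test. Without either KO adipose library, Igfbp6, Upk3b and Msln failed the filter and could not be tested. The calls of Dcn, Upk3b and Msln were lost without WT adipose library 2 or either KO spleen library, and those of Upk3b and Msln also without WT adipose library 3 or either WT spleen library. With only the 4 libraries compared, none of the 4 was called. The 10 tested macrophage markers all had a difference above 0, with 4 higher in both KO libraries. Erythroid markers (5 genes found) summed to 24599 and 41287 TPM in KO adipose libraries, against 37.0 and 2668 TPM in WT adipose libraries, with 4 of 5 higher in both KO libraries. All 11 T cell core markers had a difference below 0, with a median of -0.58, beside the median of -0.58 over the 10 feedback genes. Limma called 0 macrophage, 0 erythroid and 0 T cell core markers. The part of these transcripts in the KO and WT differences of the 10 genes was not tested.

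In spleen Dusp1, Dusp2, Dusp5 and Zfp36l1 were lower in both KO libraries than in both WT libraries, and Dusp6 and Ier3 were higher in both. None passed the test over all genes. In these libraries all 10 tested macrophage markers were lower in both KO libraries, with a median log2 difference of -1.60, and the fibroblast and mesothelium markers summed to at most 0.196 TPM in KO and at most 0.454 TPM in WT. The 5 erythroid markers found summed to 785 and 63217 TPM in KO spleen libraries and 10739 and 26957 TPM in WT spleen libraries. The part of these markers in the differences of the 10 genes was not tested. Dusp5 averaged 12.0 ± 4.84 TPM in KO and 22.1 ± 0.642 TPM in WT (SD, n = 2 each), a log2 difference of -0.89 ± 0.39 SE (95% interval -1.78 to 0.00445, adjusted p = 1 by limma). Ier3 averaged 4.20 ± 0.101 TPM in KO and 1.92 ± 0.928 TPM in WT, a log2 difference of 0.87 ± 0.48 SE (95% interval -0.22 to 1.96, adjusted p = 1 by limma). Dusp6 averaged 19.4 ± 0.251 TPM in KO and 14.3 ± 2.32 TPM in WT, a log2 difference of 0.42 ± 0.38 SE (adjusted p = 1 by limma). The log2 difference was -0.97 ± 1.65 SE for Dusp2, -0.55 ± 0.35 for Dusp1 and -0.33 ± 0.60 for Zfp36l1, and for the overlapping genes -0.79 ± 0.70 for Zfp36, 0.28 ± 0.72 for Dusp4, -0.03 ± 0.46 for Nfkbia and 0.03 ± 0.50 for Tnfaip3. Each SE pools the spread of all 4 groups, so that of Dusp2 includes its split in adipose tissue. With 1 library left out its spleen difference ran from -1.15 to -0.79.

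The limma fit called 0 of 10 genes in spleen and 0% of all tested genes, and at an unadjusted p under 0.05 it held 0 of 10 genes beside 0.478% of all genes. Non-overlap with KO lower was seen for 4 of 10 genes, beside 13.9% of all genes, and with KO higher for 2 of 10, beside 5.93%. The median log2 difference was -0.18 over the 10 genes and -0.12 over all genes. The genotype by tissue interaction, which asks whether the KO and WT difference in adipose tissue differed from that in spleen, was called by limma for 0 of 10 genes, beside 0.0299% of all genes. At an unadjusted p under 0.05 it held 0 of 10, beside 3.06%. The largest interactions in size were those of Tnfaip3 (-1.26 ± 0.70 SE), Ier3 (1.004 ± 0.673) and Dusp6 (-0.93 ± 0.54), each with an adjusted p of 1 by limma.

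**Figure D3:**
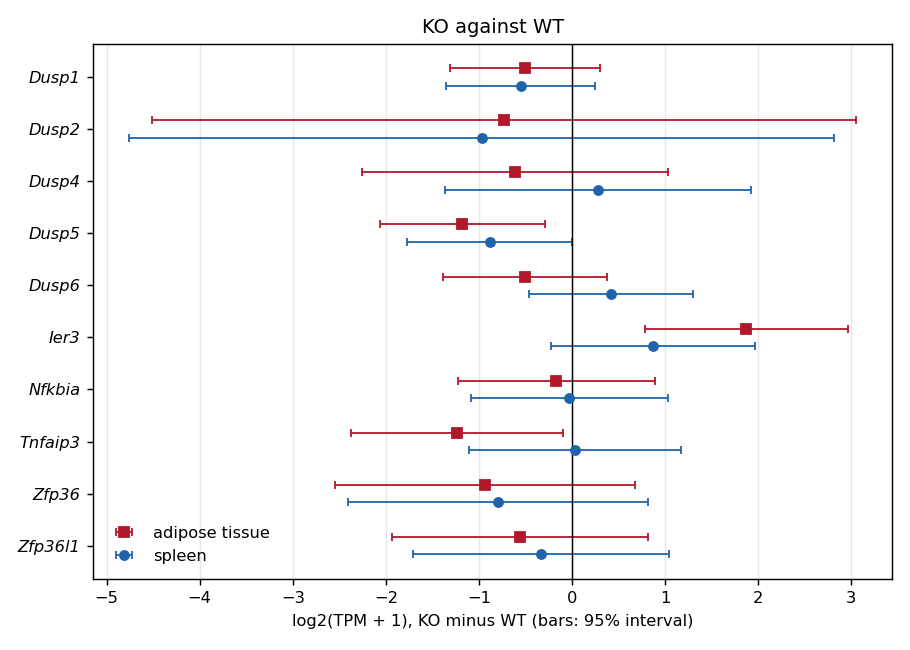
Difference in log2(TPM + 1) between KO and WT for each gene, in adipose tissue (squares) and spleen (circles), with 95% intervals from the limma fit, 2 libraries a group. The intervals of Dusp5, Ier3 and Tnfaip3 in adipose tissue leave out 0, with centres at -1.18, 1.87 and -1.23, and none of these passed the adjustment over all genes.

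A difference averaged over both tissues was added after the values were seen. It was 1.37 ± 0.34 SE in log2 for Ier3 (unadjusted p = 0.00337, adjusted p = 0.683 by limma) and -1.03 ± 0.27 SE for Dusp5 (unadjusted p = 0.00528, adjusted p = 0.803 by limma). These were the 2 of 10 genes with an unadjusted p under 0.05, beside 3.76% of all tested genes, and 0 of 10 passed the adjusted threshold, beside 0% of all genes. Ier3 was higher in both KO libraries of both tissues, as were 0.673% of all tested genes. Dusp1 and Dusp5 were lower in both KO libraries of both tissues, as were 3.07% of all genes.

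In adipose tissue Dusp2 differed most between the libraries of a group. In spleen the widest gaps were those of Zfp36 in KO and Tnfaip3 in WT (log2 1.28 and 1.38). Between experiments 3 and 2 the log2 difference of Dusp2 was -3.95 in KO adipose tissue and -5.21 in WT adipose tissue, and -0.23 in KO spleen and 0.35 in WT spleen. The drop was thus seen in both genotypes of adipose tissue and not in spleen. Only 9 of 13376 tested genes, Dusp2 included, were at least as far down in both adipose groups. Zfp36 was higher in experiment 3 in every group, by log2 1.52 in KO adipose tissue, 1.66 in WT adipose tissue, 1.28 in KO spleen and 0.45 in WT spleen. Zfp36l1 was higher in experiment 3 by 1.54 in KO adipose tissue, 1.45 in WT adipose tissue and 0.38 in KO spleen, with -0.10 in WT spleen. In the same order of groups, the percentiles among all tested genes were 81.8, 94.2, 86.9 and 61.7 for Zfp36. For Zfp36l1 they were 82.1, 92.1, 45.4 and 26.1, so its value in KO spleen was no larger than that of most genes. Adipocyte markers were also higher in adipose tissue in experiment 3 (13862 TPM in KO and 2166 TPM in WT) than in experiment 2 (122 TPM in KO and 29.6 TPM in WT), and their part in these differences was not tested. Over all genes tested, the log2 difference between experiments had an SD of 1.49 in KO adipose tissue, 1.07 in WT adipose tissue, 0.84 in KO spleen and 0.70 in WT spleen.

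**Figure D4:**
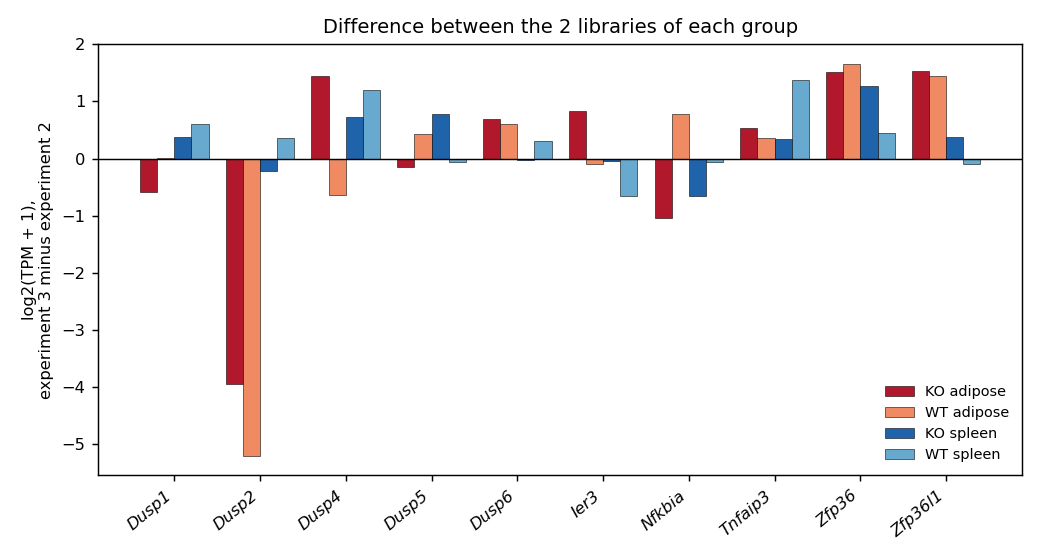
Difference in log2(TPM + 1) between experiments 3 and 2 within each group, a bar for each gene and group, with 1 library in each experiment and so no error bar. Dusp2 stands at -3.95 in KO and -5.21 in WT adipose tissue, while its spleen bars lie near 0.

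Other genes of the same pathways are given by list, with no test of a list. The list names are loose. That of mRNA decay factors also holds Elavl1, and that of NF-kB inhibitors Traf2 and Nfkbiz, whose roles are not only those named. In adipose tissue against spleen, median log2 differences of the 7 other dual-specificity phosphatases tested were 0.37 in KO and 0.76 in WT. Those of the 16 other NF-kB inhibitors were 0.14 in KO and 0.53 in WT, those of the 14 other mRNA decay factors 0.16 in KO and 0.40 in WT, and those of the 13 other MAPK inhibitors tested 0.23 in KO and 0.16 in WT. Limma called 0 genes of these 4 lists in either genotype. In these lists Dusp3, Dusp8 and Spry2 passed the filter only through adipose libraries. Nfkbid, a nuclear inhibitor-like protein of the IkB family, had log2 differences of 1.17 ± 0.50 SE in KO (adjusted p = 0.379 by limma) and 2.49 ± 0.50 in WT (adjusted p = 0.121 by limma). Nfkbiz, of the same family, had 2.02 ± 0.66 SE in KO (adjusted p = 0.254 by limma) and 2.75 ± 0.66 in WT (adjusted p = 0.182 by limma).

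The 21 MAPK pathway kinases had medians of 0.62 in KO and 0.74 in WT, and the 13 NF-kB subunits and upstream kinases 0.43 in KO and 0.83 in WT, with 0 genes called by limma in either list and genotype. Rel, an NF-kB subunit of activated lymphocytes, had a difference of -1.78 ± 0.61 SE in KO (adjusted p = 0.280 by limma) and -2.05 ± 0.61 in WT (adjusted p = 0.261 by limma). Among 18 NF-kB target genes the medians were -0.37 in KO and -0.09 in WT, and limma called 0 higher and 1 lower in KO and 0 in WT. The 1 called was Tnfrsf9, the costimulatory receptor 4-1BB, with 25.4 and 32.3 TPM in KO adipose libraries, 22.7 and 69.3 TPM in WT adipose libraries, 224 and 290.5 TPM in KO spleen libraries and 321 and 264 TPM in WT spleen libraries. Its log2 difference was -3.11 ± 0.50 SE in KO (adjusted p = 0.0337 by limma) and -2.84 ± 0.50 in WT (adjusted p = 0.0823 by limma). The KO call was lost without either KO spleen library, either WT spleen library, KO adipose library 3 or both KO libraries numbered 2. It was also lost with no filter, no trend in the variance or library weights, and held in 9 of 18 alternatives, with adjusted p from 0.0131 to 0.242.

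Of 15 mRNAs assembled as candidate targets of Zfp36, 13 were tested, and their medians were 2.02 in KO and 0.98 in WT. Among them, Il6, Il17a and Ccnd1 passed the filter only through adipose libraries, Ccnd1 only through those of KO. The medians and calls of this list are therefore a description. Limma called 2 higher and 0 lower in KO, and 1 higher and 0 lower in WT. Ier2, an immediate early gene, had 840.1 and 875 TPM in KO adipose libraries, 1056 and 1897 TPM in WT adipose libraries, 95.5 and 120.0 TPM in KO spleen libraries and 124 and 136 TPM in WT spleen libraries. It was called higher in both genotypes, at log2 2.99 ± 0.35 SE in KO (adjusted p = 0.0112 by limma) and 3.44 ± 0.35 in WT (adjusted p = 0.0169 by limma). The KO call was lost without either KO spleen library or both KO libraries numbered 2 (range of adjusted p over 18 alternatives 0.00769 to 0.135), and the WT call without either WT spleen library or WT adipose library 3, with no filter or with no trend in the variance (range 0.00324 to 0.231). Il6, the cytokine, was listed at 22.9 and 70.3 TPM in KO adipose libraries, 8.46 and 60.7 TPM in WT adipose libraries, 0 and 0.0731 TPM in KO spleen libraries and 0 and 0.218 TPM in WT spleen libraries. It was called in KO (log2 5.32 ± 0.92 SE, adjusted p = 0.0424 by limma, range 0.0107 to 0.353 over 18 alternatives) and not in WT (4.45 ± 0.92, adjusted p = 0.124 by limma). Since Il6 was below 1 TPM in every spleen library, it was tested only because of its adipose values, and the KO call is no test. The KO call of Il6 was lost in the same settings as that of Tnfrsf9 and at a pseudocount of 5, and held in 8 of 18. Csf2, the gene of the cytokine GM-CSF, and Il2 did not pass in either genotype, with log2 differences of 6.69 ± 1.26 SE and 3.82 ± 0.73 in KO and 8.20 ± 1.26 and 5.21 ± 0.73 in WT.

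**Figure D5:**
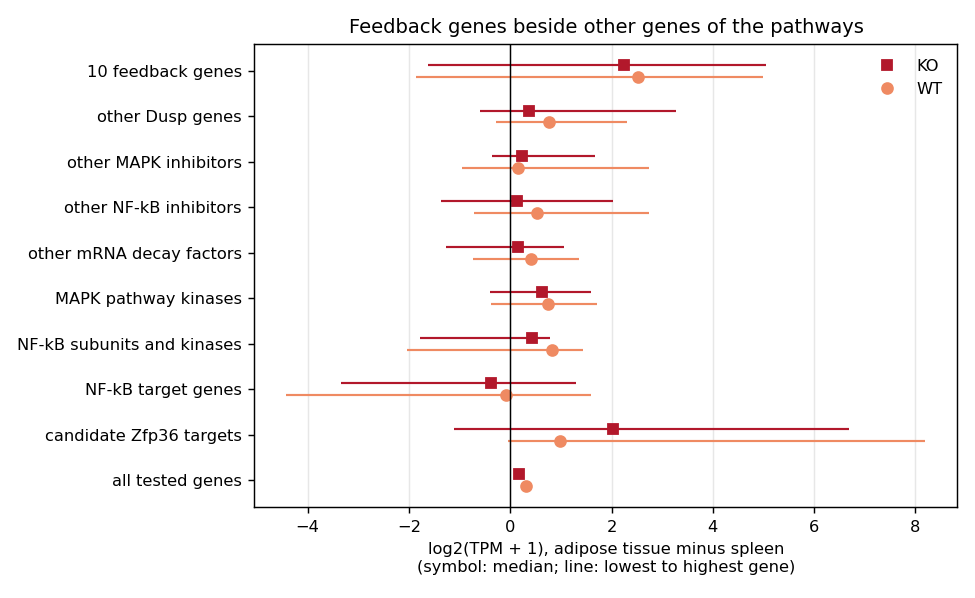
Difference in log2(TPM + 1) between adipose tissue and spleen for the 10 feedback genes and 8 lists of other pathway genes, with symbols at the median and lines over the lowest to highest gene, KO above WT. The 10 feedback genes have medians of 2.25 in KO and 2.52 in WT, and all tested genes 0.16 in KO and 0.32 in WT.

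For KO against WT, limma called 0 genes of these 8 lists in adipose tissue and 0 in spleen. In adipose tissue the medians lay between -0.78 for the 13 NF-kB subunits and upstream kinases and -0.21 for the 7 other dual-specificity phosphatases, beside -0.27 over all genes. All 14 genes listed as other mRNA decay factors and 15 of 16 listed as other NF-kB inhibitors had a difference below 0, beside 67.7% of all genes. The lists differed in this. It was 18 of 21 for the MAPK pathway kinases, 11 of 13 for the NF-kB subunits and upstream kinases and 16 of 18 for the NF-kB target genes. It was only 5 of 7 for the other dual-specificity phosphatases, 7 of 13 for the other MAPK inhibitors and 8 of 13 for the candidate Zfp36 targets. Genes with the smallest p in some of the lists were Rasal3, a Ras GTPase-activating protein (-1.81 ± 0.49 SE, adjusted p = 0.358 by limma), Nfkbid (-1.48 ± 0.50 SE, adjusted p = 0.548 by limma), Malt1, a paracaspase of the NF-kB pathway (-1.61 ± 0.52 SE, adjusted p = 0.510 by limma), and Bcl2, which opposes apoptosis (-1.43 ± 0.33 SE, adjusted p = 0.220 by limma). Among the other dual-specificity phosphatases the smallest p was that of Dusp3, whose difference was above 0 (0.91 ± 0.85 SE, adjusted p = 0.812 by limma). In spleen the list medians lay between -0.30 and 0.12, beside -0.12 over all genes.

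Centred on its own mean, each gene's log2 profile over the 8 libraries was set against the median profile of the 10 genes. The root mean square difference in log2 was smallest for Dusp5, at 0.35, and largest for Dusp2, at 2.57. Among 11318 other genes the 5 nearest were Acvr2a, an activin receptor, at 0.21, Fem1c, a substrate receptor of a ubiquitin ligase, at 0.24, Cass4, a scaffold protein, at 0.24, Lgals1, the gene of galectin-1, at 0.25, and Galnt3, a glycosyltransferase, at 0.26. The median over the 11318 genes was 1.04. Lgals1 was the most abundant of the 5, with 3602 and 3269 TPM in KO adipose libraries, 3295 and 3527 TPM in WT adipose libraries, 743 and 992 TPM in KO spleen libraries and 1051 and 1074 TPM in WT spleen libraries. The 8 libraries fall into 2 tissues, so any gene that separates the tissues by a similar factor scores as near.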

How the data were processed

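Sorted-cell RNA was converted to cDNA with a SMARTer v4 kit and made into libraries with Nextera XT, per the labels' protocols. The authors deposited TPM per gene in 1 table of 8 libraries, each column summing to 1000000. The build was mm9 per the submitters' processing notes. No aligner, counter or annotation is named in the sources used here. The table gives no positions, and promoter sequences are from RefSeq on another build, GRCm38.p6. Differences were fitted on log2(TPM + 1) with limma 3.58.1 (R 4.3.3) and a mean-variance trend, in 1 fit of 4 groups with 4 residual degrees of freedom. Genes reaching 1 TPM in 2 or more libraries (13376) were tested, and p-values were adjusted by Benjamini-Hochberg over all of them at 0.05. The fit assumes 1 spread per gene in all groups. The steps were tested on simulated data with independent genes and 1 spread per gene in all groups. In the real libraries the SD between experiments ran from 0.70 in WT spleen to 1.49 in KO adipose tissue. The simulation therefore checks that the steps run and does not show their error rates here. Same-numbered libraries tended to deviate alike, with correlations over genes of 0.128 to 0.382 in the 6 pairs of groups, so the number was taken as a possible pairing, and a block is an alternative. All 10 genes were named, with up to 4 genes of smallest p per list and the 5 nearest genes by profile. Ier2, Il6 and Tnfrsf9 are the genes of the 8 pathway lists called between tissues. The 10 genes, the lists and the motifs were chosen with earlier results of these data known. Means ± SD are over 2 libraries.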

Additional observations from a re-analysis of the deposited data

How the results depend on the processing

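No member was called between genotypes, or in the interaction, under any of the 18 alternatives (17 for the interaction, which cannot be fitted on 4 libraries alone). The lowest adjusted p of a member was 0.109 in adipose tissue, 0.971 in spleen and 0.773 for the interaction, by limma. With the experiment number as a replicate block the number of members called stayed 0 in each of these. The block raised the tissue calls from 4 to 6 members in KO and from 3 to 5 in WT.

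The median tissue difference of the 10 genes ranged from 1.78 to 2.44 in KO and from 1.99 to 2.87 in WT when 1 library was left out, with 1.99 without WT adipose library 3. Uncalled genotype differences and interactions changed sign as follows when 1 library was left out. In adipose tissue KO against WT ranged from -3.34 to 1.87 for Dusp2, -1.34 to 0.12 for Dusp4, -0.69 to 0.35 for Nfkbia and -1.33 to 0.21 for Zfp36l1. In spleen it ranged from -0.32 to 0.88 for Dusp4, -0.36 to 0.30 for Nfkbia and -0.66 to 0.72 for Tnfaip3. The interaction ranged from -0.26 to 0.35 for Dusp1, -2.37 to 2.84 for Dusp2, -0.68 to 0.10 for Dusp5, -0.66 to 0.38 for Nfkbia, -0.98 to 0.68 for Zfp36 and -0.99 to 0.54 for Zfp36l1. Without both KO libraries numbered 2, those low in Foxp3, KO against WT in adipose tissue was 0.12 for Dusp4 and 0.21 for Zfp36l1, and the interaction was -0.44 for Dusp1, -1.62 for Dusp2 and 0.35 for Zfp36l1. Tnfaip3 in spleen was -0.00855 at a pseudocount of 5, and the Nfkbia interaction 0.015 after quantile normalization. Between tissues, differences changed sign for Dusp2 (-3.59 to 0.36 in KO and -4.46 to 0.75 in WT), Dusp4 in WT (-0.60 to 0.60), Nfkbia (-0.34 to 0.71 in KO and -0.06 to 0.72 in WT) and Zfp36l1 (-0.99 to 0.55 in KO and -0.72 to 0.73 in WT) when 1 library was left out. The cause was not tested.

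Counts over all genes moved more: 38 called in adipose tissue (0 to 271 over the alternatives), 0 in spleen (0 to 2), 4 for the interaction (0 to 79), 144 between tissues in KO (1 to 710) and 22 in WT (0 to 219). Quantile normalization shifted the median of all genes from 0.16 to -0.11 in KO and from 0.32 to -0.00 in WT between tissues, where the 10 genes kept medians of 1.89 and 2.23, and changed the KO split from 124 higher and 20 lower to 173 and 58. A filter at 5 TPM leaves Dusp4 out.

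Depth is unknown, so low values such as those of Dusp4 carry no counting error here. With 2 libraries a group, intervals are wide, and a difference that misses the threshold is not shown to be absent.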
